A study of Mus musculus with 28 samples.

Results

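A set of 5 rows of the alveolar macrophage (AM) miRNome of mice breathing filtered air (FA) or ozone (O3) is described here, namely miR-320-3p, miR-484, miR-877-5p, miR-1981-5p and miR-1981-3p, listed by the authors as mmu-mir-320-3p, mmu-mir-484, mmu-mir-877-5p, mmu-mir-1981-5p and mmu-mir-1981-3p. They come from the 4 miRNA genes mir-320, mir-484, mir-877 and mir-1981, whose precursors are known to form without the nuclear enzyme Drosha, and they were taken by name from the 607 miRNA rows listed in the 4 deposited tables. All 5 were listed for co-ex males, KO males and KO females. In co-ex females 4 were listed, since miR-1981-3p has no row there. Each listed member passed the filter on low values, which asked for at least 5 normalized reads in 3 libraries of a KO table or 4 of a co-ex table.

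Most miRNAs are cut out of a long transcript by Drosha and its partner Dgcr8, leave the nucleus as a short hairpin and are then cut by Dicer into a pair of strands, the 5p and the 3p arm. Precursors of mir-320 and mir-484 skip the first step because RNA polymerase II makes a short capped hairpin directly, so that the 5′ end of the hairpin is the start of transcription. A mirtron such as mir-877 or mir-1981 skips it because the whole hairpin is a small intron, which the splicing machinery releases and the debranching enzyme opens. Both routes still need Dicer, and both end in the same Argonaute proteins as the usual route.

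Mature sequences for 4 of the 5 members were found in the RefSeq table for GRCm38.p6, and they are shown with bases 2 to 8, the seed that pairs with target messages, in capitals.
miR-484: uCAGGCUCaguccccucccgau
miR-877-5p: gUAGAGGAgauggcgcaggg
miR-1981-5p: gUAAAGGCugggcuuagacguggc
miR-1981-3p: cAUCUAACccuggccuuugac
No other mature sequence in that table carried any of these 4 seeds, and no pair of members shared one. GC content was 63.6% for miR-484, 65.0% for miR-877-5p, 58.3% for miR-1981-5p and 52.4% for miR-1981-3p. The median over the 517 of 607 listed rows with a sequence was 50.0%, and the middle part of those rows, from the 25% to the 75% quantile, ran from 42.1% to 59.1%. Both mirtron 5p arms open with a guanine followed by uracil, the bases at which a spliced intron begins.

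The hairpins of the mirtrons are printed because their ends are the splice sites, which are in capitals.
Mir877: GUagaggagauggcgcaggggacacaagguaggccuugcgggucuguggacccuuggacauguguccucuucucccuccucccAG
Mir1981: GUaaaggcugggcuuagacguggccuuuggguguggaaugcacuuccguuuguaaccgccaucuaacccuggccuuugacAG
Mir877 lies at chr17:35960730-35960814 on the minus strand and fills intron 12 of Abcf1, a gene for a factor in translation initiation, from its first to its last base. Mir1981 lies at chr1:184822407-184822488 on the minus strand and fills intron 5 of Marc2, a gene for a mitochondrial reductase, in the same way. These introns are 85 and 82 bases long. Of the 1005 hairpins in the RefSeq table, 16 (1.59%) coincided with a whole intron of the GENCODE vM21 annotation on their own strand, and 191 (19.0%) shared at least 1 end with one. Of the 25 hairpins of other listed rows that were taken as mirtrons by name or number, 3 were whole introns and 23 (92.0%) shared at least 1 end.

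Mir484 does not match an intron at either end. Its hairpin, with the mature strand in capitals, begins 4 bases before that strand.
Mir484: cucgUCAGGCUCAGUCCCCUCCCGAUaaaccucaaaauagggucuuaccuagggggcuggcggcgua
It lies at chr16:14159626-14159692 on the plus strand, opposite to Marf1, whose gene spans it, and 3582 bases before the start of Nde1 on its own strand. Mir320 lies 62 bases from Polr3d, which encodes a subunit of RNA polymerase III and is transcribed from the other strand.

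The mice were 12 weeks old, of strain C57BL/6 by the labels, and were exposed for 3 h and left to recover for 4 h, when AM were taken by lavage of the lung. Co-ex mice express the human surfactant protein genes SP-A1 (variant 6A2) and SP-A2 (variant 1A0) on a C57BL/6J background without mouse SP-A, and KO mice have no SP-A, so the mouse gene is missing in all 8 groups. Each combination of genotype, sex and exposure gave 4 libraries in co-ex and 3 in KO, 28 in all. The labels number the libraries without naming animals, so a p-value measures the spread between libraries. Human transgene RNA is not seen by this assay, and the genotype could not be checked in it.

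Libraries held between 41542 and 2082034 reads on miRNAs, with a median of 490152, and 3 reads corresponded to between 1.04 and 12.9 normalized reads. Haematopoietic miRNAs (a list of 6, with miR-223-3p, miR-142a, miR-21a-5p and others) made up between 4.25% and 22.3% of the signal in all libraries. Epithelial miRNAs (a list of 11, with the miR-200 family) stood apart in KO females, where their summed level was 1003 to 2406 normalized reads in the 3 FA libraries and 10611 to 17560 in the 3 O3 libraries. All 3 O3 libraries lay above all FA libraries for 10 of these 11, and 1 of the 11 was at 0 in all 3 FA libraries. In KO males the FA library of replicate 3 held 2.83% epithelial signal, as against 0.225% and 0.273% in the other two FA libraries and 2.17% to 2.81% in the O3 libraries. Red cell miRNAs (a list of 4) made up 1.28% to 13.7% of the signal in co-ex females after FA and 0.293% to 0.428% after O3. For 2 of these 4, all O3 libraries of co-ex females lay below all FA libraries. In such bulk samples fewer cells of a type and less RNA per cell cannot be told apart.

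The 5 miRNAs formed a high and a low set. Levels are given in RPM, the reads of a miRNA per 1000000 miRNA reads of its library. miR-320-3p had a median of 4649 RPM over the 28 libraries (lowest 1142, highest 16873), and miR-484 had a median of 2223 (lowest 1317, highest 6385). The mirtrons were far scarcer, with medians of 29.5 for miR-877-5p and 91.6 for miR-1981-5p over 28 libraries and 26.0 for miR-1981-3p over 20. Both miR-320-3p and miR-484 exceeded every mirtron member in 28 of 28 libraries. miR-320-3p exceeded miR-484 in 21 of them. In reads, a library gave between 218 and 5090 for miR-320-3p and between 58 and 5028 for miR-484, but a median of only 15.5 for miR-877-5p, with 2 libraries at 0. RPM of different miRNAs were not calibrated against each other, which limits their order.

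**Figure D1:**
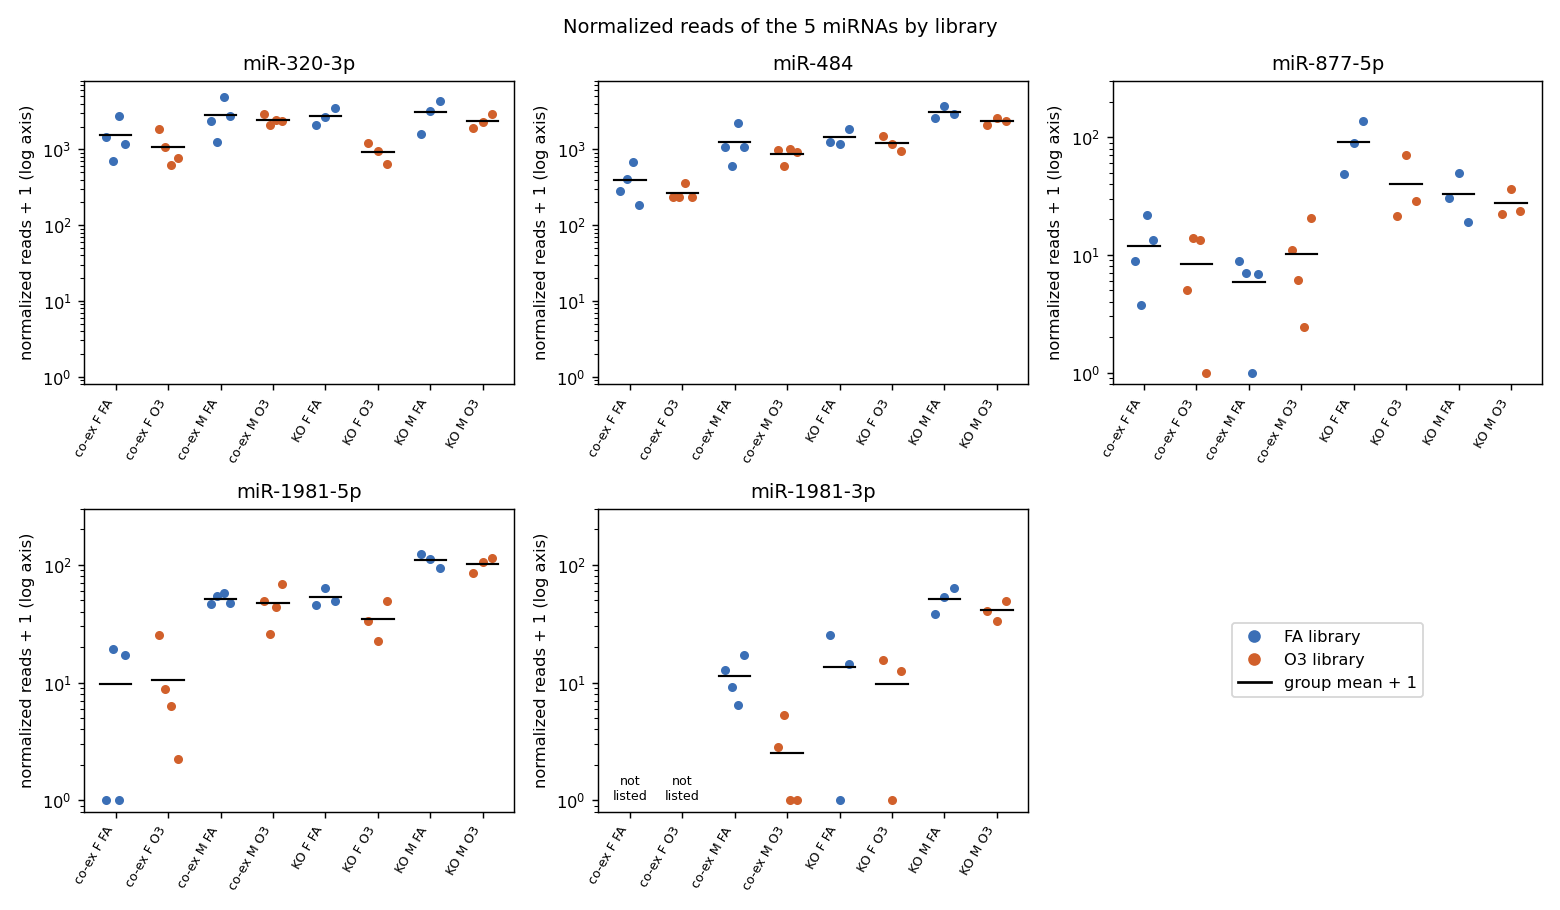
Normalized reads plus 1 (log axis) of each of the 5 miRNAs in each library, by genotype (co-ex, KO), sex (F, M) and exposure; points are libraries and bars are group means plus 1. In the KO F panels of miR-320-3p the 3 O3 points (632 to 1220) lie below the 3 FA points (2124 to 3555), while the groups of miR-484 overlap in KO females.

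miR-320-3p was highest in co-ex females after FA, at 9764 ± 5282 RPM (SD, n = 4), followed by co-ex males after FA (8600 ± 4581, n = 4), co-ex males after O3 (7001 ± 1090, n = 4), co-ex females after O3 (6715 ± 3087, n = 4) and KO females after FA (5046 ± 1601, n = 3). KO males after FA (2186 ± 955, n = 3), KO males after O3 (2003 ± 377, n = 3) and KO females after O3 (1891 ± 570, n = 3) were lowest. Neighbours in this order overlapped in their libraries, except that KO females after FA lay above KO males after FA. The highest library of co-ex females after FA, replicate 3 at 16873 RPM, held only 93520 reads. Red cell miRNAs reached 13.7% of the signal among the FA libraries of co-ex females. For miR-484 the order ran from 3765 ± 1960 (SD, n = 4) in co-ex males after FA to 1692 ± 482 (n = 4) in co-ex females after O3, with overlap between all neighbours. miR-877-5p ran from 164 ± 89.1 (n = 3) in KO females after FA to 15.1 ± 10.2 (n = 4) in co-ex males after FA, again with overlap between all neighbours. miR-1981-5p was highest in co-ex males after FA, at 155 ± 25.6 (n = 4), and lowest in co-ex females after FA, at 55.9 ± 64.6 (n = 4), where 2 of 4 libraries held none. Co-ex and KO libraries carry separate series of library codes. Their median depth was 181209.5 reads in co-ex females, 408363 in co-ex males, 689658 in KO females and 1264472.5 in KO males. Genotype and library series therefore cannot be told apart in these orders.

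In KO females 1 of the 5, miR-320-3p, passed the test, with lower values after O3. Normalized reads of miR-320-3p were 2124, 2710 and 3555 in the FA libraries and 1220, 939 and 632 in the O3 libraries. No O3 library reached the lowest FA library. The mean fell from 2796 ± 719 (SD, n = 3) to 930 ± 294 (n = 3), a ratio of 0.333. By limma the log2 change was −1.61 (SE 0.33, 95% confidence interval −2.37 to −0.84, Benjamini-Hochberg adjusted p = 0.0157 over 319 miRNAs). Among all tested miRNAs 13.2% passed the threshold of 0.1, with 3.13% lower after O3 and 10% higher, and miR-320-3p was the 1 of the 5 members that passed. Its p ranked 23 of 319. FA and O3 groups did not overlap for 31.3% of all miRNAs, 12.2% with lower values after O3. With any 1 of the 6 libraries left out the log2 change stayed between −1.83 and −1.35 and the limma adjusted p between 0.0195 and 0.0811. The FA libraries held 744541 to 1002869 reads on miRNAs and the O3 libraries 111080 to 634775, so depth differed with exposure. FA replicates 2 and 3 also carry later library codes than all other libraries of KO females. The part of depth or library series in the change of miR-320-3p was not tested.

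The same 3 O3 libraries carried the epithelial signal given above. All 10 epithelial miRNAs tested in KO females were higher after O3, with log2 changes of 2.40 to 5.15, and 8 of them passed. The 6 haematopoietic miRNAs changed by −0.50 to 0.02, with 5 of the 6 below 0, and none passed. For 1 of these 6 all O3 libraries lay below all FA libraries, as held for 12.2% of all miRNAs there. Haematopoietic miRNAs made up 10.6% to 12.3% of the signal after FA and 10.4% to 11.1% after O3. Muscle and mesenchymal miRNAs (a list of 5, of which 2 had all O3 libraries above all FA libraries) made up 0.0205% to 0.0880% of the signal after FA and 0.0973%, 0.290% and 9.01% after O3, and none of the 4 tested passed. The 4 red cell miRNAs made up 0.612% to 3.25% after FA and 0.436% to 2.41% after O3. Without the O3 library of replicate 3, which held the 9.01%, the log2 change of miR-320-3p was −1.35 (limma adjusted p = 0.0811), and 25 miRNAs of any kind were called in place of 42. The part of the epithelial and muscle signal in the change of miR-320-3p was not tested. When each library was scaled to its total instead, miR-320-3p was still called, and its log2 change lay between −1.61 and −1.42 over the 7 other settings of normalization, filter, pseudocount, threshold, test and block.

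**Figure D2:**
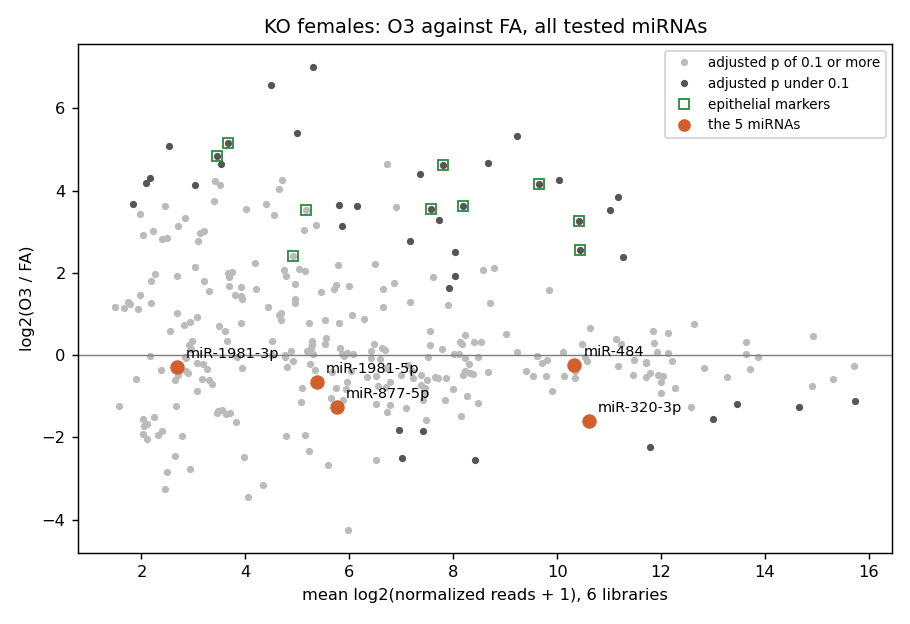
Log2 change from FA to O3 in KO females against mean log2(normalized reads + 1) over 6 libraries, for the 319 tested miRNAs; grey points did not pass an adjusted p of 0.1, dark points did, green squares are the epithelial list and orange points are the 5 miRNAs. miR-320-3p lies at −1.61 among the abundant miRNAs, and miR-484 lies beside it in level but at −0.25.

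In the other tables miR-320-3p did not pass the test. Co-ex females gave 1473, 705, 2755 and 1192 normalized reads after FA and 1842, 1061, 623 and 764 after O3, with a log2 change of −0.47 (95% confidence interval −1.50 to 0.56, limma adjusted p = 0.891). Its FA and O3 libraries overlapped, as did those of the other 3 members there, and groups did not overlap for 4.06% of all miRNAs of that table. Co-ex males gave 2364, 1252, 4858 and 2761 after FA and 2904, 2097, 2460 and 2386 after O3, and KO males gave 1622, 3187 and 4419 after FA and 1904, 2323 and 2904 after O3. The log2 changes were −0.04 (−0.96 to 0.88, limma adjusted p = 0.967) in co-ex males and −0.28 (−1.36 to 0.81, adjusted p = 0.967) in KO males. The KO males' value became 0.043 without the FA library of replicate 3, the one with high epithelial signal and the latest library code of KO males. Calls among all miRNAs were also rare in these tables, at 0.369% in co-ex females, 0% in co-ex males (0 of 312 by limma, edgeR and DESeq2, with 11 at an unadjusted p under 0.05) and 0.909% in KO males. Without that FA library of KO males the calls there rose from 4 to 86, none of them a member.

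Averaged over the 4 tables, miR-320-3p was lower after O3 by limma, with a log2 change of −0.60 (SE 0.23, 95% confidence interval −1.08 to −0.12, adjusted p = 0.0886 over 230 miRNAs). At this threshold 20% of all miRNAs were called, 5.22% lower and 14.8% higher after O3. The call rested on KO females, since the log2 change was −0.26 and the adjusted p 0.772 over the other 3 tables, and over those tables no miRNA of any kind was called. It was also lost when any of 18 of the 28 libraries was left out, with adjusted p-values up to 0.171.

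**Figure D3:**
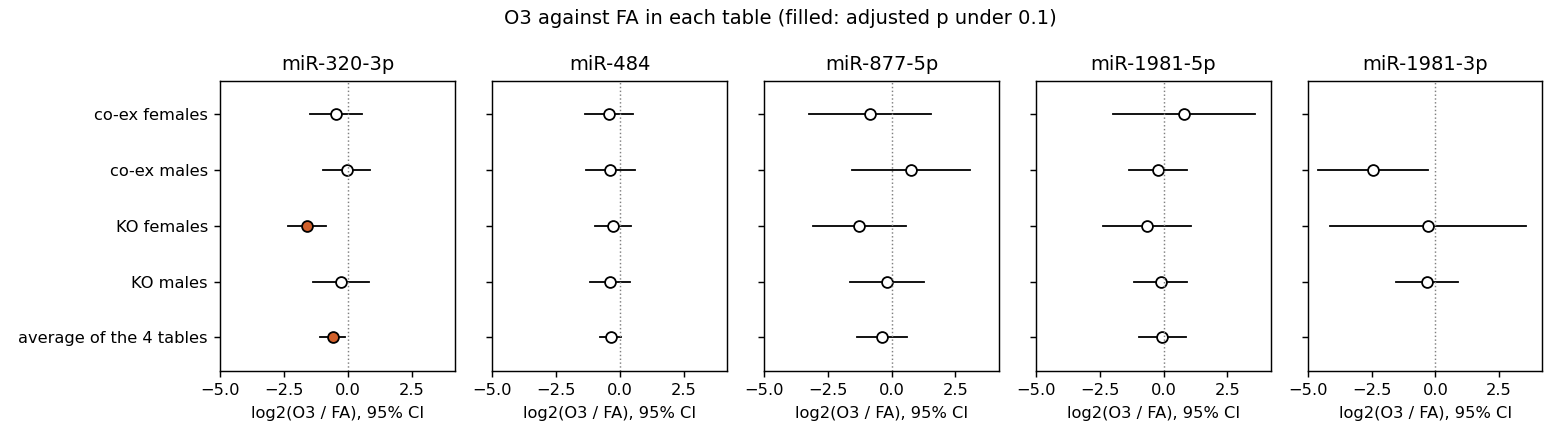
Log2 ratio of O3 to FA with its 95% confidence interval for each of the 5 miRNAs, in each of the 4 tables and averaged over them; filled points passed an adjusted p of 0.1. The 2 filled points are miR-320-3p in KO females (−1.61) and on average (−0.60), and the intervals of the mirtrons are wider than those of miR-320-3p and miR-484, except that miR-1981-5p has a narrower one than miR-320-3p in KO males.

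The response of miR-320-3p was compared between groups directly. By limma it was 1.33 log2 units higher in KO males than in KO females (95% confidence interval 0.08 to 2.58, adjusted p = 0.758 over 309 miRNAs). The unadjusted limma p was 0.0395. It was 1.14 higher in co-ex females than in KO females (−0.25 to 2.53, adjusted p = 0.402), where 8.71% of miRNAs were called. Neither difference passed, so the drop in KO females is not shown to differ from the other groups. For the other members, no difference of response between sexes or genotypes passed either, in a design in which 0% of all miRNAs were called between the sexes (limma gave 0 of 249 for co-ex and 0 of 309 for KO, where 8 and 17 had an unadjusted p below 0.05) and between the genotypes in males (0 of 305, with 6).

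miR-484, the other miRNA from a capped hairpin, is known as a regulator of mitochondrial fission. In KO females it had 1234, 1189 and 1888 normalized reads after FA and 1502, 1167 and 938 after O3, and the log2 change was −0.25 (95% confidence interval −0.96 to 0.46, limma adjusted p = 0.657). The groups overlapped. KO males had 2616, 3737 and 2928 after FA and 2073, 2610 and 2351 after O3. There the groups did not overlap, as held for 12.7% of all miRNAs of that table, and the log2 change of −0.39 (−1.17 to 0.39, limma adjusted p = 0.952) did not pass.

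In co-ex mice the change of miR-484 did not pass either. After FA the co-ex females had 284, 405, 686 and 186 normalized reads, and after O3 they had 233, 233, 354 and 235. The co-ex males had 1090, 610, 2199 and 1066 after FA and 968, 611, 1014 and 918 after O3. Groups overlapped in both sexes, with log2 changes of −0.42 (−1.38 to 0.53, limma adjusted p = 0.891) and −0.37 (−1.33 to 0.58, adjusted p = 0.944). The change was thus below 0 in 4 of 4 tables, with an average of −0.36 (SE 0.20, −0.78 to 0.06, limma adjusted p = 0.278). DESeq2 on the recovered reads called it (−0.48, adjusted p = 0.0736), and the other 7 settings did not.

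Because both miRNAs are abundant, their ratio within a library can be read without any scaling between libraries. In KO females there were 1.96 ± 0.29 (SD, n = 3) reads of miR-320-3p per read of miR-484 after FA and 0.763 ± 0.078 (n = 3) after O3. The FA libraries ranged from 1.72 to 2.28 and the O3 libraries from 0.673 to 0.812. An exact permutation test on 3 against 3 libraries cannot give a p below 0.1, and none was made. In KO males the ratio was 0.994 ± 0.461 (n = 3) and 1.01 ± 0.19 (n = 3), in co-ex females 4.34 ± 1.98 (n = 4) and 4.37 ± 2.62 (n = 4), and in co-ex males 2.26 ± 0.23 (n = 4) and 2.86 ± 0.45 (n = 4), after FA and O3 in turn. These groups overlapped between exposures, and the shift from a surplus of miR-320-3p to a surplus of miR-484 was seen in KO females. The ratio restates the same reads as the changes given above, so it is a description and no separate support. How often other pairs of miRNAs separate in this way was not computed, and a difference of the ratio shift between tables was not tested.

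**Figure D4:**
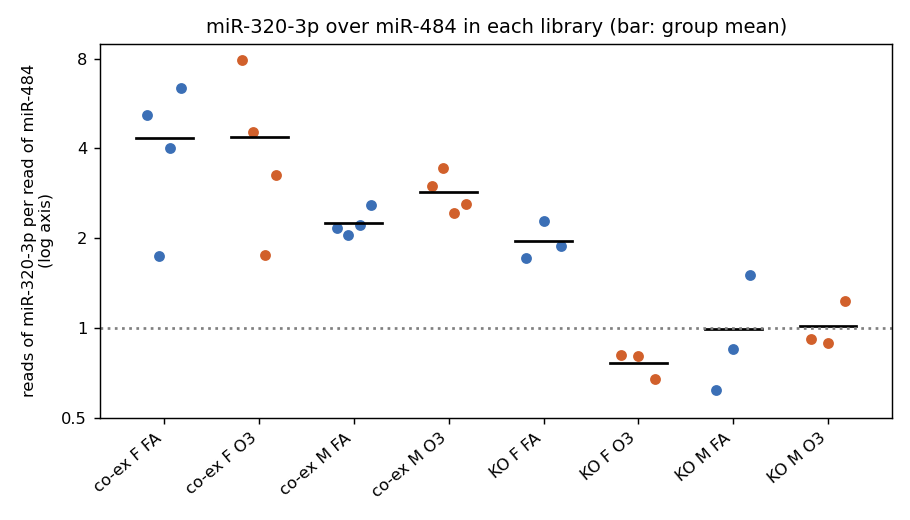
Reads of miR-320-3p per read of miR-484 in each library (log axis) by group; points are libraries, bars are group means and the dotted line marks equal reads. The 3 O3 libraries of KO females (0.673 to 0.812) lie below the line and their 3 FA libraries (1.72 to 2.28) above it.

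Among the mirtrons, miR-877-5p was highest in KO females, with 48.0, 87.9 and 135 normalized reads after FA and 20.4, 68.9 and 27.8 after O3. The highest O3 library, replicate 2, lay inside the FA range. It was the shallowest of KO females, with 16 reads of miR-877-5p among 111080. The log2 change of −1.26 had a confidence interval of −3.09 to 0.56 and did not pass (limma adjusted p = 0.409). KO males gave 29.5, 48.3 and 17.9 after FA and 21.5, 35.1 and 22.7 after O3, with a log2 change of −0.19 (−1.65 to 1.27, limma adjusted p = 0.967). In co-ex the counts were near the limit of detection, with at most 21 reads of miR-877-5p in any of the 16 libraries, and the log2 changes of −0.85 in females (−3.24 to 1.54) and 0.76 in males (−1.57 to 3.08) had opposite signs without either passing (limma adjusted p = 0.891 and 0.944).

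miR-1981-5p had 44.6, 63.0 and 48.2 normalized reads in KO females after FA and 32.3, 21.5 and 47.9 after O3, with a log2 change of −0.66 (−2.39 to 1.07, limma adjusted p = 0.641). The highest O3 value lay within the FA range, and the lowest, 21.5, came from 5 reads in the shallow O3 library of replicate 2. In KO males it had 122, 111 and 92.5 after FA and 84.1, 105 and 112 after O3, and in co-ex males 45.4, 53.8, 57.2 and 46.8 after FA and 48.5, 24.8, 42.5 and 68.2 after O3. FA and O3 libraries overlapped in both tables, with log2 changes of −0.11 (−1.16 to 0.94, limma adjusted p = 0.967) and −0.22 (−1.35 to 0.91, adjusted p = 0.944). In co-ex females it had 0, 18.3, 0 and 16.3 after FA and 24.1, 7.74, 5.32 and 1.24 after O3. A log2 change of 0.80 with an interval of −1.99 to 3.60 (limma adjusted p = 0.908) leaves its direction there unresolved.

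miR-1981-3p gave the largest estimate of any member, in co-ex males. It had 11.8, 8.21, 5.45 and 16.1 normalized reads after FA and 1.83, 4.28, 0 and 0 after O3, from 2 to 22 reads per FA library and 0 to 5 per O3 library. The groups did not overlap, as held for 2.88% of the 312 miRNAs tested there and, downwards, for 0.641%. This row passed the filter through its 4 FA libraries, since no O3 library reached 5. Its log2 change of −2.44 (SE 0.99, 95% confidence interval −4.60 to −0.28) had an unadjusted p of 0.0301 and an adjusted p of 0.944 over 312 miRNAs by limma, and it did not pass. In KO females the row had 24.3, 0 and 13.3 after FA and 14.4, 0 and 11.6 after O3, with 1 library of each group at 0. In KO males it had 37.6, 52.0 and 62.7 after FA and 39.5, 32.6 and 48.7 after O3. Their log2 changes were −0.30 (−4.14 to 3.55, limma adjusted p = 0.953) and −0.32 (−1.53 to 0.90, adjusted p = 0.967).

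Of the members tested, 3 of 4 had a log2 change below 0 for co-ex females and 4 of 5 for co-ex males, as did all 5 for each sex of KO, with medians of −0.45, −0.22, −0.66 and −0.28. Over all miRNAs the log2 change was below 0 for 56.8%, 41.7%, 47.0% and 51.4% in these tables, with medians of −0.16, 0.18, 0.06 and −0.04. One member was called in KO females, where 13.2% of all miRNAs were, and none in co-ex females, co-ex males and KO males, where 0.369%, 0% and 0.909% were.

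The share of reads on each arm differed between the hairpins. Reads of the arms were not calibrated against each other, so the shares do not measure which arm is kept. Of the reads on both arms of mir-320, a median of 5.53% lay on the 5p arm (28 libraries, lowest 0.212%, highest 38.3%), and the 3p arm was the major one in all 28. For mir-877 the median was 50.0% over the 27 libraries with reads, with a range from 0% to 100% at a median of 25 reads on both arms. For mir-1981 the 5p arm held a median of 78.9% and was above 50% in 20 of the 20 libraries of the 3 tables that list both arms. Its lowest share in a library was 59.6%.

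In KO females, where miR-320-3p fell, its partner miR-320-5p had 4.52, 11.0 and 80.3 normalized reads after FA and 53.5, 181 and 37.1 after O3. Its log2 change of 2.04 did not pass (95% confidence interval −0.70 to 4.79, limma adjusted p = 0.354). The 5p share of mir-320 was 0.942% ± 1.10 (SD, n = 3) after FA and 8.63% ± 6.55 (n = 3) after O3, without overlap, and the two-sided exact permutation p of 0.1 is the smallest that 3 against 3 libraries allow. Over all tables the 5p share was 3.46 percentage points higher after O3 for mir-320 (two-sided exact permutation p = 0.158, adjusted p = 0.359 over 3 hairpins), 4.24 points higher for mir-877 (p = 0.626 by the same exact test) and 5.97 points higher for mir-1981 (exact p = 0.239, adjusted p = 0.359). None passed. For mir-320, the log2 ratio of the arms gave an exact permutation p of 0.0429 in place of the share, which did not pass after adjustment over the 3 hairpins (adjusted p = 0.129). Intervals of shares that come from few reads cover counting error only, and reads without molecular identifiers are not independent molecules.

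**Figure D5:**
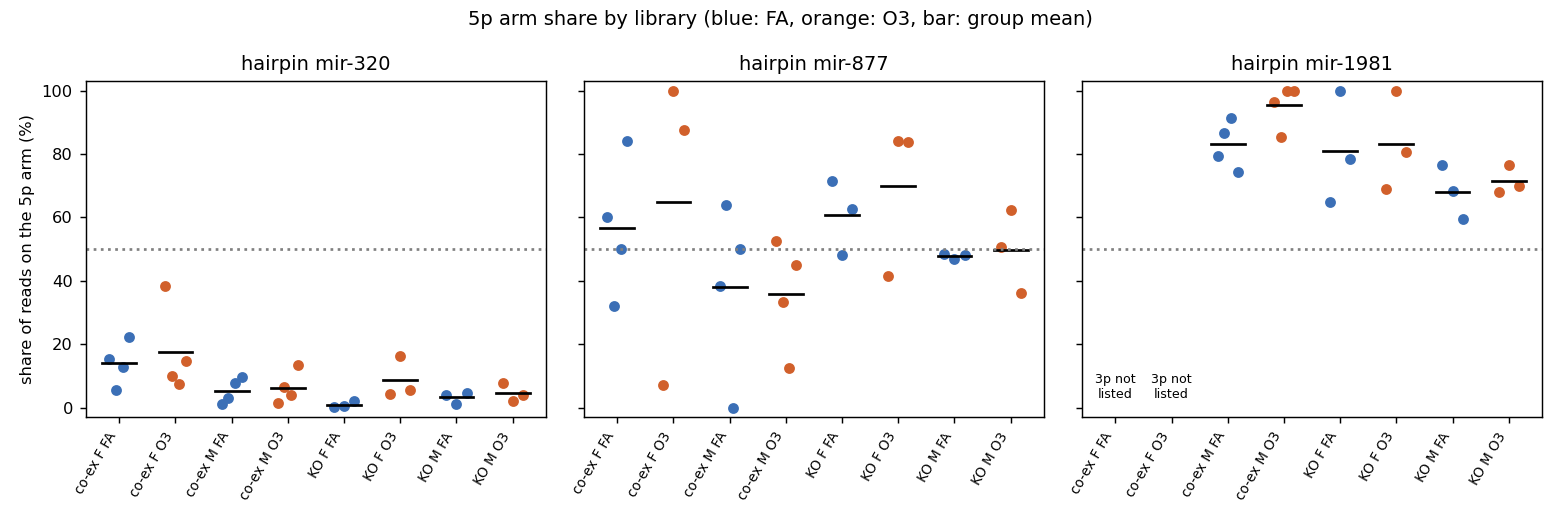
Share of the reads on both arms that lay on the 5p arm (%), for the hairpins mir-320, mir-877 and mir-1981 in each library; points are libraries, bars are group means and the dotted line marks 50%. mir-320 reaches at most 38.3%, mir-1981 has no library under 59.6%, and mir-877 spans 0% to 100%.

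Other miRNAs that bypass Drosha were looked at as lists. Of 31 rows of other mirtrons (mir-702, mir-1224, mir-3102 and the numbered set from mir-6896 to mir-7093) in any table, 16 passed the filter in at least 1. None of the 3, 5, 7 and 10 tested in co-ex females, co-ex males, KO females and KO males passed the test, with median log2 changes of −0.73, 0.18, −1.63 and 0.33 where all miRNAs had −0.16, 0.18, 0.06 and −0.04. In KO females the 7 ran from −2.04 to 3.44, with 4 below 0. The nearest to passing was miR-6948-3p in KO females, with a log2 change of 3.44 (SE 1.17, limma adjusted p = 0.118). The highest value of any row of other mirtrons in a library was 161 normalized reads. Of 6 rows from small nucleolar RNA or tRNA genes (mir-1839, mir-664, mir-1291 and mir-1983), none passed in the 3 tested in co-ex females or the 6 tested in each other table, and log2 changes ran from −1.51 to 1.99. The median of these rows in KO females was 0.48.

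The reverse case is miR-451a, which Drosha cuts and Dicer does not, its precursor being trimmed after a cut by Argonaute 2. It is also the main miRNA of red cells. Its log2 changes of −2.28 in co-ex females, −0.43 in KO females and −0.35 in KO males did not pass (limma adjusted p = 0.778, 0.912 and 0.967), and it was not tested in co-ex males. Of the 3 red cell miRNAs tested in co-ex females, 1 was called lower after O3 (limma adjusted p = 0.0341), and no other miRNA was called there. The part of the red cell signal in the changes of the members was not tested.

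Rows with patterns like those of the members were taken by Pearson's r of log2(normalized reads + 1), centred within each table, over 28 libraries and 230 miRNAs. These correlations are descriptions, since libraries share scaling and exposure. For miR-320-3p the 3 nearest were miR-328-3p (r = 0.814), miR-423-5p (r = 0.810) and miR-23a-5p (r = 0.781), where the median over all rows was −0.16. For miR-484 they were miR-328-3p (r = 0.752), miR-365-2-5p (r = 0.692) and miR-125a-5p (r = 0.637). miR-484 itself ranked 15 of 229 for miR-320-3p, with r = 0.534. The mirtrons had lower best correlations, with r at 0.477 (miR-1195) for miR-877-5p and 0.543 (miR-107-3p) for miR-1981-5p. Between miR-877-5p and miR-1981-5p r was −0.0066. These mirtrons had medians of 15.5 and 53.0 reads per library, against 1871.5 for miR-320-3p and 1192.5 for miR-484. The part of counting error in their lower r was not tested.

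The rows nearest to miR-320-3p also had low values in the O3 libraries of KO females, which are among the 28 libraries that chose them. There the log2 change was −2.24 (SE 0.45) for miR-423-5p, −1.85 (SE 0.47) for miR-23a-5p and −0.88 (SE 0.38) for miR-328-3p. In KO males the same miRNAs had −0.46 (SE 0.54), −0.39 (SE 0.55) and −0.18 (SE 0.42).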

How the data were processed

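Small RNA from AM was made into libraries with an adapter-ligation kit and sequenced by the authors on an Illumina HiSeq 2500. Per the labels and the paper, the authors demultiplexed with CASAVA 1.8, trimmed with the FASTX-Toolkit, aligned and counted with Chimira, and tested with edgeR and TCC. The genome build and miRBase release are not given in the sources used here. The deposited values are a signal, the reads of a miRNA divided by a size factor for its library, one table for each genotype and sex. Whole reads were recovered from them for 100% of values within a tolerance of 0.001. In 5 libraries, among them all 3 FA libraries of KO females, low values were too few to check the size of 1 read separately, so reads, RPM and count tests are less sure there. The authors' own columns (mean, log2 fold change, p-value, q-value and rank) were not used.

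O3 was compared with FA by limma 3.58.1 (R 4.3.3) on log2(value + 1) with a trended prior. A miRNA was tested where at least 5 normalized reads were seen in 3 libraries (KO) or 4 (co-ex), with Benjamini-Hochberg adjustment over all tested miRNAs and a threshold of 0.1. Such changes are on the log2(value + 1) scale and understate those of low miRNAs. The average and the differences of response are contrasts within tables, over miRNAs passing in each, since tables were normalized separately. RPM were computed from recovered reads. Alternatives were total scaling, no filter, edgeR 4.0.16, DESeq2 1.42.0, a pseudocount of 0.1, a threshold of 0.05, a replicate block and each library left out. Sequences and coordinates are RefSeq's for GRCm38.p6, with introns from GENCODE vM21. Python 3.11.15, scipy 1.17.1 and matplotlib 3.10.9 were used.

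The 5 miRNAs, the lists and the tests were chosen with earlier results of these data known. Named miRNAs were the members, their partner arms, other miRNAs bypassing Drosha, miR-451a, markers, and for each member tested in all tables the 3 most alike. Libraries were not paired by replicate number in the main tests. In 36 pairs of replicates the lowest chi-square per degree of freedom was 21.8, so none was counted as a duplicate. On simulated counts, changes of 2 log2 units were recovered for 50.0% of 26 miRNAs in co-ex females and 57.1% of 28 in co-ex males. In KO females 48.0% of 25 were recovered and in KO males 15.4% of 26. Changes of 4 were recovered for 88.5% of 26, 100% of 25, 77.3% of 22 and 78.6% of 28 in the same order. In all 243, 295, 282 and 395 miRNAs were tested in these simulations. Unchanged miRNAs were falsely called 3, 7, 0 and 3 times in these tables in turn.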

Additional observations from a re-analysis of the deposited data

Results flagged for a closer look

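A library stood far from the other 3 of its group. miR-484 in the O3 library of co-ex females numbered replicate 3 was at 354 normalized reads, with the others at 233, 233 and 235, and the gap made up 0.987 of the group's range. In all 18 groups of 4 were tested in this way, and chance flags about 1 in 20, so 1 flag is near what chance gives. Groups of 3 libraries, all those of KO, were not tested.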

How the results depend on the processing

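In KO females miR-320-3p was the 1 member called under total scaling, no filter, edgeR, DESeq2, a pseudocount of 0.1, a threshold of 0.05 and the replicate block (adjusted p = 0.0761), and with each library left out. On average over the 4 tables the number of members called was 1, and it became 0 under total scaling, no filter, a threshold of 0.05, the replicate block (adjusted p = 0.116 for miR-320-3p), and without the table of KO females, the last chosen after seeing the data. It became 2 with DESeq2, and ranged from 0 to 1 with 1 library left out. The number called was 0 in every other comparison under each alternative run. The replicate block changed no other call of a member. The labels do not say whether replicate numbers mark a shared animal or day. Correlations of same-numbered libraries ran from −0.28 to 0.23, which cannot tell whether a day was shared.

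Directions reversed only for values that had not passed. The log2 change of miR-1981-5p was −0.12 with edgeR in co-ex females, and on average it was 0.0346 under total scaling, 0.30 with a pseudocount of 0.1 and 0.16 without KO females. Total scaling gave 0.048 for miR-877-5p and 0.13 for miR-1981-5p in KO males, and −0.11 for the genotype difference of miR-320-3p in males. With 1 library left out, miR-320-3p ranged from −0.37 to 0.28 in co-ex males and from −0.68 to 0.043 in KO males, its genotype difference in males from −0.10 to 0.64, and miR-877-5p from −0.53 to 0.16 in KO males. miR-1981-5p ranged from −0.43 to 0.040 in co-ex males, from −0.22 to 0.011 in KO males and from −0.22 to 0.14 on average, and miR-1981-3p from −1.71 to 0.97 in KO females. The 5p share of mir-877 ranged from −0.154 to 11.5 percentage points, and for mir-320 the log2 ratio of the arms was 1.23 higher after O3 (exact permutation p = 0.0429, adjusted p = 0.129 over the 3 hairpins). The causes were not tested. Leaving out the 10 most abundant miRNAs raised 36 of 38 RPM levels by more than 1 SD, since it shrinks the denominator. Depth limits the mirtrons of co-ex, with at most 21 reads of miR-877-5p in a library.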
